A study of Mus musculus with 2 samples.

Results

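The Mir106b-25 and Mir106a-363 clusters are the paralogs of the Mir17-92 cluster, and their 9 microRNA genes were followed here in the embryonic mouse heart. The members were taken by stable Ensembl identifier and are Mir106b, Mir93 and Mir25 of the Mir106b-25 cluster, and Mir106a, Mir18b, Mir20b, Mir19b-2, Mir92-2 and Mir363 of the Mir106a-363 cluster. All 9 were found among the 1973 genes of both tables. The 6 genes of the Mir17-92 cluster served as the comparison.

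Small RNA under 30 bases long was sequenced from healthy hearts of strain B6NCrl at embryonic day 10.5, in 2 libraries that the labels call biological replicates. Replicate 1 came from the hearts of 69 pooled embryos and replicate 2 from those of 51, each a mix of male and female animals. The labels name no transgene, mutation or treatment, and each library stands for a pool rather than a single animal. There is 1 group, so every comparison is between genes of a library or between the libraries. Own-strand gene counts totalled 4163656 in replicate 1 and 4789068 in replicate 2, and a count of 0 would allow up to 0.721 and 0.626 CPM. CPM is each gene's own-strand count divided by the library's sum over all genes, brought to the usual common library size. A count is a read assigned to the hairpin, so the arms of a hairpin are not told apart. How evenly different sequences were captured was not measured, so ratios between genes are ratios of counts. Reads that mapped to several places (23.3% and 23.5% of reads) were assigned to no gene.

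The 3 clusters arose by duplication and carry up to 4 kinds of seed, the bases 2 to 8 of a mature microRNA through which it recognises its targets. In mouse, the Mir17-92 cluster is needed for the development of heart and lung, and loss of either paralog cluster alone is tolerated, while loss of Mir17-92 and Mir106b-25 together is lethal in the embryo with heart defects. MicroRNAs of the miR-17 family are known to repress the cell death gene Bcl2l11 and the cell cycle inhibitor Cdkn1a, and the clusters are known from proliferating cells.

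The mature sequences are shown because the seed decides which members can be compared as 1 family, and because the rest of the sequence decides whether a read can be assigned to 1 gene. RefSeq (GRCm38.p6) held a mature arm for all 9 members, and the seed is in capitals. Mir106b, Mir93, Mir106a and Mir20b share the miR-17 seed with Mir17 and Mir20a.

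miR-106b-5p: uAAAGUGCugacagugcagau
miR-93-5p: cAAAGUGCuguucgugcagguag
miR-106a-5p: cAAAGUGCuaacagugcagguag
miR-20b-5p: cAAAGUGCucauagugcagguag
miR-17-5p: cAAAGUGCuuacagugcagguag

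Counted from 1 at the 5′ end, miR-106a-5p and miR-17-5p differ at 1 of 23 positions (A10U, where miR-106a-5p is written first). miR-20b-5p and miR-20a-5p differ at 2 positions (C1U and C10U). No miR-17 family arm of the members occurred in the hairpin of another annotated microRNA, and the longest stretch these 4 hairpins share with another one was 13 or 14 bases.

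The miR-92 seed is carried by Mir25, Mir92-2 and Mir363, and by Mir92-1 of the Mir17-92 cluster. The miR-18 seed is carried by Mir18b and Mir18, and the miR-19 seed by Mir19b-2, Mir19b-1 and Mir19a.

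miR-25-3p: cAUUGCACuugucucggucuga
miR-92a-3p: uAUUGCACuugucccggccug
miR-363-3p: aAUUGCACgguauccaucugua
miR-18b-5p: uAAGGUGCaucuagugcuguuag
miR-18a-5p: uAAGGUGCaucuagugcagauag
miR-19b-3p: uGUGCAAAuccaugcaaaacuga

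The arm miR-92a-3p is identical in Mir92-2 and Mir92-1, whose hairpins share 22 bases, and miR-19b-3p is identical in Mir19b-2 and Mir19b-1, which share 25. A read equal to either arm maps to both copies and enters no gene's count. The counts of Mir92-2, Mir92-1, Mir19b-2 and Mir19b-1 are therefore lower limits, as are family and cluster totals that include them. Which arm these counts come from is not known. miR-18b-5p and miR-18a-5p differ at U18A and U20A (miR-18b-5p first), and miR-25-3p and miR-92a-3p differ at C1U, U14C and U18C (miR-25-3p first). miR-363-3p keeps the seed but differs from miR-25-3p at 13 of 22 positions.

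The Mir106b-25 cluster spans 498 bases of the minus strand of chromosome 5 (mm10, chr5:138165321-138165818) within Mcm7, which encodes a subunit of the replicative DNA helicase. Mir106b (chr5:138165737-138165818) lies in an intron of every overlapping Mcm7 transcript in GENCODE M21. Mir93 (chr5:138165523-138165610) and Mir25 (chr5:138165321-138165404) are intronic except in 1 of 3 overlapping transcripts, a retained-intron form. The Mir106a-363 cluster spans 875 bases of the minus strand of chromosome X (chrX:52741693-52742567). Mir106a (chrX:52742503-52742567) overlaps in part an exon of the noncoding RNA Kis2. Mir18b (chrX:52742331-52742413), Mir20b (chrX:52742113-52742192), Mir19b-2 (chrX:52741983-52742066), Mir92-2 (chrX:52741838-52741928) and Mir363 (chrX:52741693-52741767) overlap no other annotated gene.

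Both clusters were counted in the heart at this age, and Mir106b-25 had more counts than Mir106a-363 in each library. Mir106b-25 held 1.603% of own-strand counts in replicate 1 (66758 counts, exact 95% interval 1.59 to 1.62) and 1.15% in replicate 2 (55109 counts, 1.14 to 1.16). Mir106a-363 held 0.313% (13047 counts, 0.308 to 0.319) and 0.139% (6641 counts, 0.135 to 0.142). These intervals hold the counting error of reads within 1 library and leave out the spread between pools. PCR copies of a molecule could not be told apart, so the intervals may be too narrow.

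The counted ratio of the clusters moved 1.62-fold between the libraries, by more than counting error. In replicate 1, Mir106b-25 had 5.12 times the counts of Mir106a-363 (exact 95% interval 5.02 to 5.21). In replicate 2 it had 8.30 times as many (8.09 to 8.51). These intervals do not overlap, but they leave out the spread between pools. That spread was wide over all tested genes, with a common biological coefficient of variation of 37.2% (edgeR), so a move of this size is not particular to these clusters. The ratio does not depend on how the libraries are scaled to each other. It is a ratio of counted reads, and may be too high because the total of Mir106a-363 lacks reads of its shared arms. On the log2 scale it averaged 2.70 ± 0.49 (SD, n = 2). With 2 libraries an exact two-sided sign-flip test cannot go below 0.5, so the ratio was not tested against 0.

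In the Mir106b-25 cluster nearly all counts came from its miR-17 family genes. Mir93 (ENSMUSG00000065527.1) had 8913 CPM in replicate 1 and 6517 CPM in replicate 2, a mean of 7715 ± 1694 (SD, n = 2), which placed it 27th of all genes by mean level. Mir106b (ENSMUSG00000065514.1) had 6569 and 4599 CPM, a mean of 5584 ± 1393 and the 39th place. Mir25 (ENSMUSG00000065394.1), of the miR-92 family and the last hairpin of the cluster, had 552 and 391 CPM, a mean of 472 ± 114. Each of these 3 genes was lower in replicate 2.

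The make-up of the Mir106b-25 cluster hardly moved between the libraries. Mir93 exceeded Mir106b 1.36-fold in replicate 1 (1.34 to 1.38) and 1.42-fold in replicate 2 (1.39 to 1.44). Mir106b exceeded Mir25 11.9-fold (11.4 to 12.4) and 11.8-fold (11.2 to 12.3). Mir93 made up 55.6% and 56.6% of the cluster's counts, Mir106b 41.0% and 39.96%, and Mir25 3.44% and 3.40%.

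**Figure D1:**
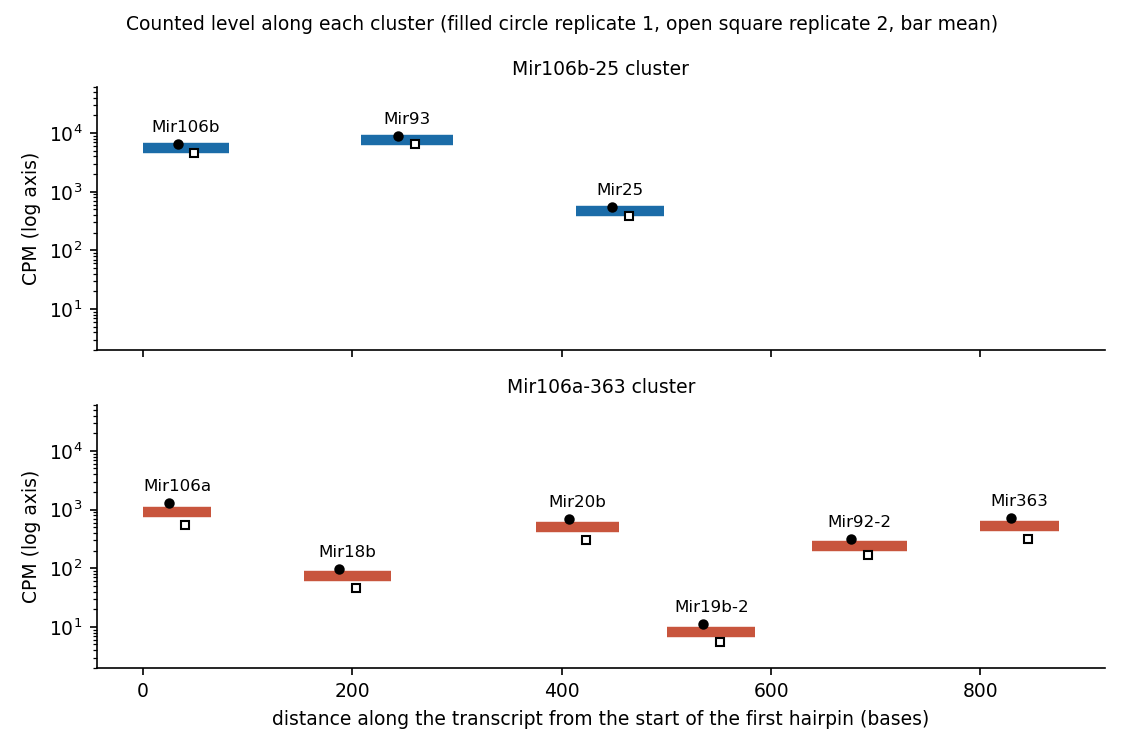
Own-strand CPM (log axis) of the members along each cluster, against the distance in bases from the start of the first hairpin in the direction of transcription. Thick bars span the hairpin at the mean of the 2 libraries, filled circles are replicate 1 and open squares replicate 2. Mir93 in the middle of its cluster is the highest at 7715 CPM, and Mir19b-2 is the lowest at 8.24 CPM.

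In the Mir106a-363 cluster the first hairpin led as counted. Mir106a (ENSMUSG00000065456.1), of the miR-17 family, had 1296 CPM in replicate 1 and 541 CPM in replicate 2, a mean of 919 ± 534 (SD, n = 2). Mir363 (ENSMUSG00000070106.1), the last hairpin and of the miR-92 family, had 725 and 320 CPM, a mean of 523 ± 286. Mir20b (ENSMUSG00000076041.1), the other miR-17 family gene of the cluster, had 687 and 303 CPM, a mean of 495 ± 272. Together these made up most of the cluster's counts. Mir106a held 41.4% and 39.0% of them, Mir363 23.1% in both libraries, and Mir20b 21.9% in both. Reads of the shared arms of Mir92-2 and Mir19b-2 are missing from this total.

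The other 3 members were lower as counted. Mir92-2 (ENSMUSG00000065613.1) had 316 and 170 CPM, a mean of 243 ± 104. Mir18b (ENSMUSG00000077111.2) had 98.2 and 46.6 CPM, a mean of 72.4 ± 36.5, on 409 and 223 counts. Mir19b-2 (ENSMUSG00000065473.1) had 11.0 and 5.43 CPM, a mean of 8.24 ± 3.97, on 46 and 26 counts. In the column taken as the opposite strand, reads were almost absent at all 9 members, with 1 at Mir93 in replicate 2, and 1 and 2 at Mir20b in replicates 1 and 2.

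**Figure D2:**
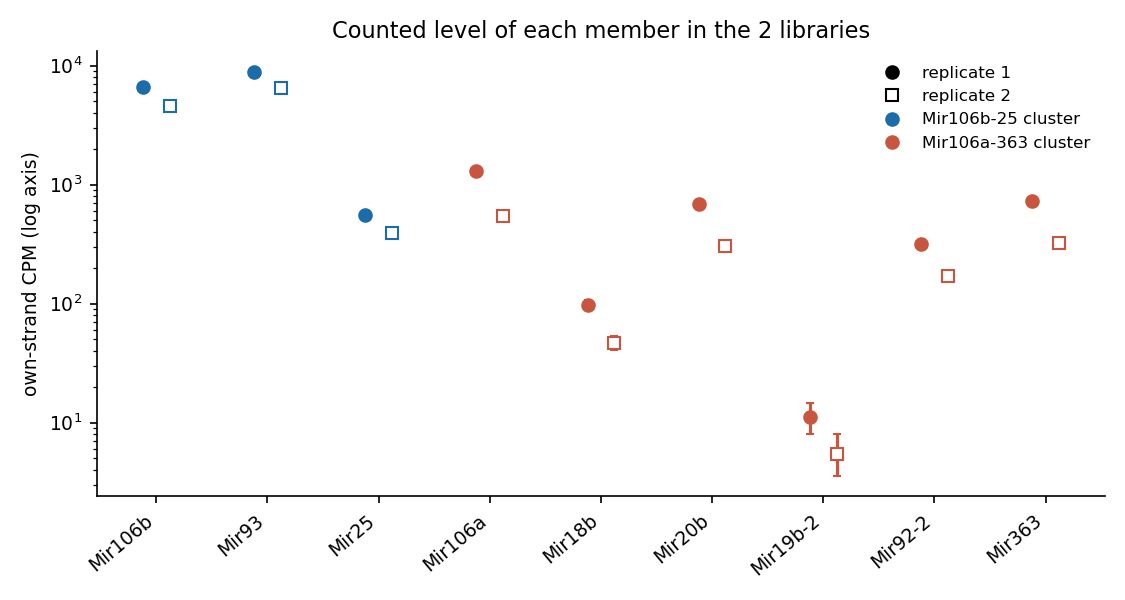
Own-strand CPM (log axis) of each member in replicate 1 (filled circles) and replicate 2 (open squares), with exact 95% counting intervals, which are smaller than the symbols for most genes. Each member is lower in replicate 2, and the gap is wider in the Mir106a-363 cluster (Mir106a, 1296 against 541 CPM) than in the Mir106b-25 cluster (Mir93, 8913 against 6517 CPM).

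The order of the members as counted was Mir93, Mir106b and Mir106a at the top of both libraries, and Mir92-2, Mir18b and Mir19b-2 at the bottom. Mir92-2 and Mir19b-2 were counted without reads of their shared arms, so their places may be too low. Mir363, Mir20b and Mir25 lay between them and could not be ranked. Mir363 exceeded Mir20b 1.05-fold in replicate 1 (1.00 to 1.11) and 1.06-fold in replicate 2 (0.982 to 1.14), and the second interval includes 1. Mir25 was below both in replicate 1, at 0.803 of the counts of Mir20b (0.760 to 0.849), and above both in replicate 2, at 1.29 times (1.20 to 1.38). The place of Mir25 therefore differed between the libraries by more than counting error. The hairpins are 65 to 91 bases long, and CPM divided by hairpin length gave the same order of the 9 members in each library.

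Between the libraries the Mir106b-25 genes differed 1.13-fold to 1.18-fold and the Mir106a-363 genes 1.54-fold to 1.98-fold, each lower in replicate 2. Of these, Mir19b-2 did not pass the test. Each gene with at least 10 counts in a library was tested by an exact two-sided binomial test with TMM-scaled library sizes (a scaling that centres most genes on no change), adjusted over 424 genes by the Benjamini-Hochberg method at 0.05. All 9 members were tested, and 8 were lower in replicate 2 and 0 higher. The test compares these libraries and not conditions, and at this depth small differences pass it. Of all tested genes 31.1% were lower, 30.4% higher and 61.6% called in either direction. On the log2 scale, the ratio of replicate 2 to replicate 1 had a median of -0.22 over the Mir106b-25 genes, -0.85 over the Mir106a-363 genes and -0.01 over all tested genes. The median size of the difference, whatever its direction, was 1.17-fold for Mir106b-25, 1.81-fold for Mir106a-363 and 1.38-fold for all tested genes.

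Among the Mir106b-25 genes, the log2 ratio was -0.24 for Mir106b (exact 95% interval -0.27 to -0.21), -0.18 for Mir93 (-0.20 to -0.16) and -0.22 for Mir25 (-0.31 to -0.13). The interval of Mir25 overlaps those of the other two, and those of Mir106b and Mir93 do not overlap each other. Among the Mir106a-363 genes, it was -0.98 for Mir106a (-1.05 to -0.92), -0.91 for Mir20b (-0.997 to -0.81), -0.90 for Mir363 (-0.99 to -0.81) and -0.80 for Mir18b (-1.04 to -0.56). Mir92-2, whose count is a lower limit, was at -0.62 (-0.75 to -0.50), an interval that overlaps that of Mir18b. Mir19b-2 did not pass, at -0.74 (-1.50 to -0.03, adjusted p = 0.0545 by the exact binomial test), on 46 and 26 counts.

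Scaling by total counts moves the median of all tested genes to -0.29 and makes 46.2% of them lower, 15.6% higher and 61.8% called in either direction. Under it all 9 members were lower, Mir19b-2 included (-1.01, adjusted p = 0.00763 by the exact binomial test). The size of each member's difference depends on this choice, with Mir93 at -0.45 and Mir106a at -1.26. The gap between the clusters does not.

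That gap can be read from pairs of members, whose ratio within a library needs no scaling. Over the 3 pairs within Mir106b-25, the ratio of the partners moved at most 1.04-fold between the libraries. Over the 15 pairs within Mir106a-363 it moved a median of 1.11-fold, from 1.00-fold for Mir20b with Mir363 to 1.28-fold for Mir106a with Mir92-2. Over the 18 pairs with 1 partner in each cluster it moved a median of 1.56-fold, from 1.31-fold for Mir106b with Mir92-2 to 1.75-fold for Mir93 with Mir106a. Leaving out Mir19b-2 and Mir92-2, whose main arms are shared with another gene, the between-cluster pairs moved 1.48-fold to 1.75-fold and the 6 pairs within Mir106a-363 at most 1.13-fold. Over all 89253 pairs of the 423 tested genes with a count in both libraries, the median move was 1.64-fold. The median between the clusters did not exceed it. Of the 424 tested genes, 276 had at least 100 counts in a library, as did every member but Mir19b-2. Pairs of all genes therefore hold more counting error, and the medians are not matched in depth. Pairs share genes and are not independent, so these values are a description.

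**Figure D3:**
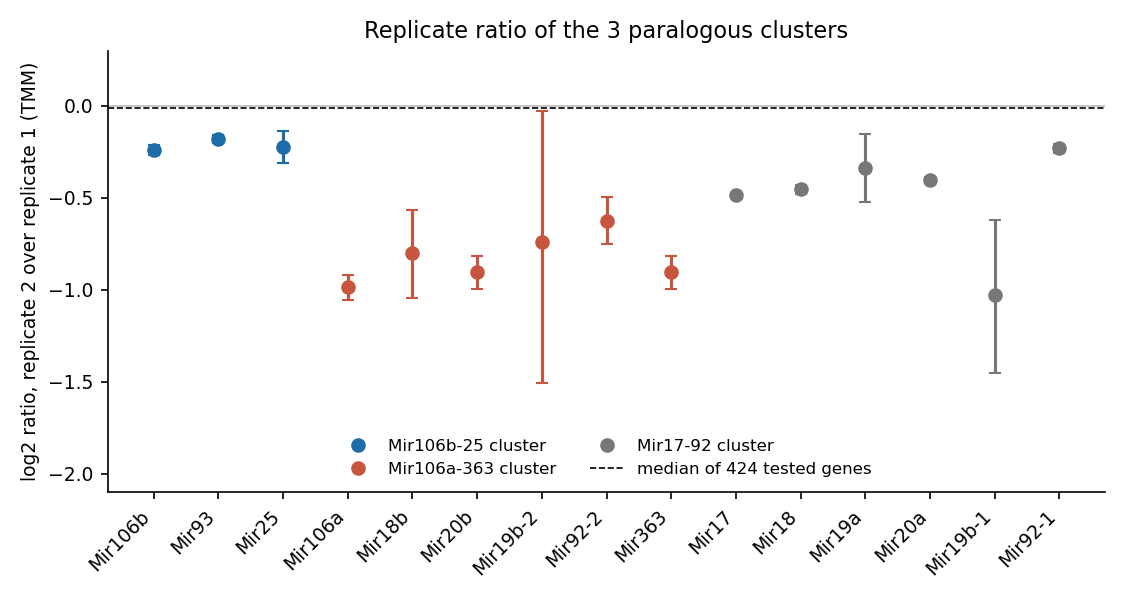
Log2 ratio of replicate 2 over replicate 1 (TMM scaling) for each gene of the 3 paralogous clusters, with exact 95% counting intervals. The dashed line is the median of 424 tested genes at -0.01. The Mir106b-25 genes lie between -0.24 and -0.18, the Mir106a-363 genes between -0.98 and -0.62, and the Mir17-92 genes between -1.03 and -0.23.

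MicroRNAs of heart muscle and of other cell types also differed between the pools, and their part in these differences was not tested. The percents below are shares of all own-strand counts, without TMM scaling. On that scale the median log2 ratio of all tested genes was -0.29. Of the 5 heart muscle genes (Mir208a, Mir208b, Mir499, Mir1a-1 and Mir133a-1), 4 were higher in replicate 2 and 0 lower with TMM scaling. Over all tested genes 30.4% were higher and 31.1% lower. Together the 5 held 3.47% of counts in replicate 1 and 6.91% in replicate 2. The 2 smooth muscle genes held 6.97% and 8.60%, the 3 red blood cell genes 0.116% and 0.171%, and the 2 listed leukocyte genes 0.0454% and 0.0332%. The 5 listed neural genes held 0.000168% and 0.000146%, and Mir9-2, Mir124a-1, Mir124a-2 and Mir124a-3 among them had no count in either library. Reads that map to several places enter no gene's count, so a low share need not mean a low level. Which genes of these lists share an arm with another gene was not checked. The 7 epithelial genes, led by the Mir200 family, held 0.707% and 0.209%, the 5 Hox-cluster genes 1.71% and 0.194%, and the 4 liver and gut genes 0.335% and 0.0293%. With TMM scaling, 3 of the liver and gut genes were lower and 1 higher, and 1 leukocyte gene was lower and 1 higher. All 7 epithelial genes and the 4 tested Hox-cluster genes were lower. The 2 smooth muscle genes, 2 of the 3 red blood cell genes and Mir126a were higher, and 0 of these were lower. The 5 genes of the pluripotency cluster Mir302-Mir367 held 2.79% and 2.20%, and with TMM scaling 3 of them were lower and 0 higher. The endothelial Mir126a held 5.33% and 5.55%. In bulk tissue, fewer cells of a type and less RNA per cell cannot be told apart.

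Set beside Mir17-92, both paralog clusters were minor as counted. Mir17-92 held 7.59% and 4.62% of counts, which was 4.74 times Mir106b-25 in replicate 1 (4.70 to 4.78) and 4.02 times in replicate 2 (3.98 to 4.06). It was 24.2 times Mir106a-363 in replicate 1 (23.8 to 24.7) and 33.3 times in replicate 2 (32.5 to 34.2). The totals of Mir17-92 and Mir106a-363 are lower limits, so these are ratios of counted reads. All 6 Mir17-92 genes were lower in replicate 2. Their median log2 ratio was -0.43, between those of the paralog clusters. Mir17 was at -0.48 (-0.49 to -0.47), Mir18 at -0.45 and Mir20a at -0.40. Mir92-1 at -0.23 (-0.26 to -0.20) and Mir19b-1 at -1.03 (-1.45 to -0.62) lay apart from these.

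Each seed family drew differently on the 3 clusters. The miR-17 family (6 genes) held 7.95% of all counts in replicate 1 and 4.92% in replicate 2. Mir93 and Mir106b supplied 19.5% of the family's counts in replicate 1 (19.3 to 19.6) and 22.6% in replicate 2 (22.4 to 22.8), with exact 95% intervals. Mir106a and Mir20b supplied 2.50% (2.44 to 2.55) and 1.72% (1.67 to 1.77). Mir17 and Mir20a supplied the rest. Mir17 had 36.0 times the counts of Mir106a in replicate 1 and 51.0 times in replicate 2, and the arms of this pair differ at a single base.

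In the miR-92 family the X-linked cluster had more counts than Mir25. As counted, without reads of the shared miR-92a-3p arm, the family's 4 genes in the clusters held 0.791% and 0.533% of counts. The shares of Mir25 and of Mir363 with Mir92-2 are therefore shares of an incomplete total. Mir363 and Mir92-2 supplied 13.2% of the family's counts in replicate 1 (12.8 to 13.5) and 9.19% in replicate 2 (8.84 to 9.55), against 6.98% (6.71 to 7.26) and 7.34% (7.02 to 7.66) for Mir25. Mir92-1 exceeded Mir25 11.4-fold in both libraries (11.0 to 11.9 and 10.9 to 11.9), which is a lower limit for Mir92-1. Mir92-1 exceeded its copy Mir92-2 19.98-fold (18.9 to 21.1) and 26.2-fold (24.5 to 28.2). As reads of the shared arm enter neither count, these ratios do not measure miR-92a-3p.

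The miR-18 and miR-19 families came almost wholly from Mir17-92 as counted, and Mir106b-25 has no member of either. Mir18b supplied 1.30% (1.18 to 1.44) and 1.03% (0.897 to 1.17) of the counts of the miR-18 family, and Mir18 exceeded it 75.7-fold and 96.4-fold. Mir19b-2 supplied 6.03% (4.45 to 7.96) and 4.99% (3.29 to 7.23) of the counts of the miR-19 family. The whole miR-19 family held 0.0183% and 0.0109% of counts. Mir19a, whose arm occurs in no other annotated hairpin, had 134 and 88.1 CPM.

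**Figure D4:**
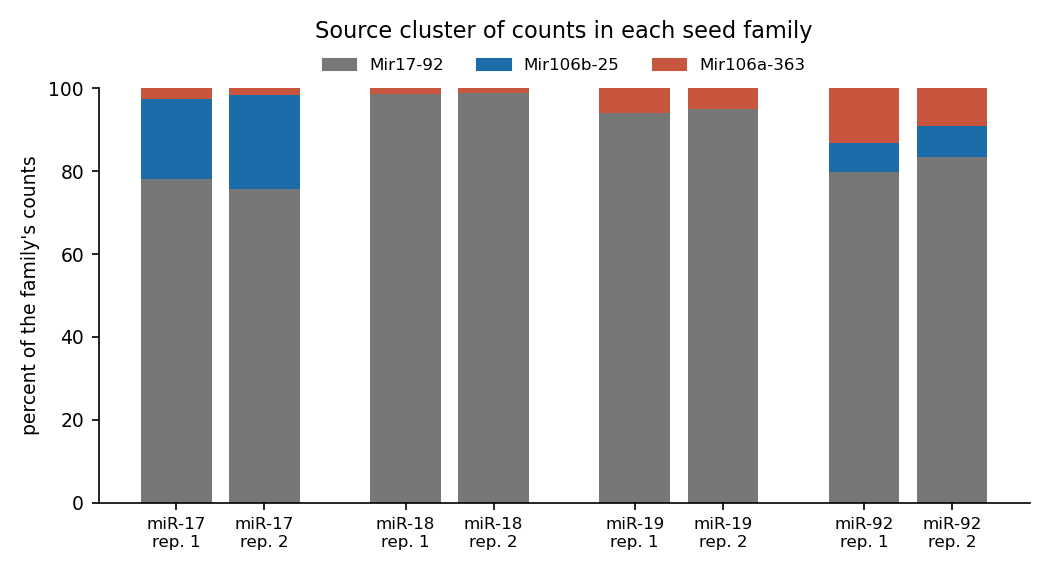
Percent of each seed family's own-strand counts that came from Mir17-92 (grey), Mir106b-25 (blue) and Mir106a-363 (red), per library. Mir106b-25 supplies 19.5% and 22.6% of the miR-17 family, and Mir106a-363 supplies 13.2% and 9.19% of the miR-92 family.

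Outside the 3 clusters, 4 listed genes carry a seed of a member. Mir92b, of the miR-92 family, had 415 and 193 CPM (mean 304 ± 157, SD, n = 2). Mir32 of the same seed had 213 and 156 CPM (mean 184 ± 40.5). Mir367, of the pluripotency cluster, had 7.69 and 7.10 CPM. Mir6383, which carries the miR-17 seed, had no count in either library.

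The genes nearest in level were found by distance over log2(CPM + 1) in the 2 libraries. Nearest to Mir93 were Mir302b (distance 0.18), Mir302d (0.19) and Mir423 (0.26). Mir302b had 7894 and 6492 CPM, Mir302d 7996 and 6087 CPM, and Mir423 7445 and 6478 CPM. Nearest to Mir106a were Mir205 (0.15), Mir300 (0.26) and Mir665 (0.27). Mir205, an epithelial microRNA, had 1381 and 499 CPM. Mir300 and Mir665, both of the imprinted Dlk1-Dio3 locus, had 1138 and 613 CPM, and 1085 and 516 CPM. With 2 libraries this likeness describes levels only.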

How the data were processed

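The authors deposited raw read counts per microRNA gene for each of 2 libraries, with no normalization. Per the deposited README files, each table was counted from its own alignment to mm10 with GENCODE M4 gene models. Which aligner and trimming were used is not given in the sources used here. No header names the columns. Column 3 was taken as own-strand and column 4 as opposite-strand counts, since column 3 held 95.5% and 95.4% of the gene counts in column 2, their sum. Rows that name no gene stayed out of library sizes and tests (26.3% and 25.5% of reads unmapped, 23.3% and 23.5% mapped to several places, 8.98% and 7.41% outside genes). Multi-mapped reads are lost from genes with identical arms.

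Symbols and positions came from GENCODE M21 on the same assembly (1894 of 1973 identifiers matched), and sequences from RefSeq. Mir19b-2 and Mir92-2 have a near-identical copy, defined as an annotated hairpin sharing at least 20 bases. Shares and ratios carry exact (Clopper-Pearson) 95% intervals from scipy 1.17.1. The replicate comparison is an exact conditional binomial test with TMM sizes from edgeR 4.0.16 over 424 genes, with a prior count of 0.5 in the log2 ratios. The test was checked on simulated counts that held counting error alone. That check leaves out the spread between pools, so it does not show how the test behaves under that spread. A quasi-likelihood test was not possible with 1 group.

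Alternatives were other scalings (total counts, DESeq2 1.42.0 size factors), counts over both strands, other filters and prior counts, and leaving out a library, the most abundant gene or members with a copy. Named genes are all members, the Mir17-92 genes, genes outside them with a shared seed, and the 3 genes nearest in level to the top member of each cluster. Members and lists were chosen with earlier results of these data known.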

Additional observations from a re-analysis of the deposited data

How the results depend on the processing

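No alternative turned the direction of a member: all 9 stayed below 0 in every fit run, 71 fits in all (Mir19b-2 was not tested with at least 100 counts required). The filters leave a log2 ratio unchanged and the prior count moves it little, so those fits could hardly turn a direction. The log2 ratio of Mir93 ran from -0.45 to -0.15 and that of Mir106a from -1.26 to -0.96. The count of Mir106b-25 and Mir106a-363 members called lower stayed within 1.5 times of 3 and 5. Mir19b-2, not called with TMM, passed with DESeq2 size factors (-0.81, adjusted p = 0.0413 by the exact binomial test) and with total counts. Calls over all genes numbered 261 and ran from 233 with at least 100 counts to 270 with counts over both strands. They split into 129 higher and 132 lower with TMM, and 66 and 196 with total counts. Without members that have a near-identical copy, the share of the miR-92 family moved from 0.662% to 0.0994%, since this leaves out Mir92-1, its largest gene. Counts divided by hairpin length, an alternative added after seeing the data, kept the log2 ratio of the clusters within the spread between the libraries. Leaving out a library leaves no replicate difference to test. No paired analysis was possible because the labels give 1 group. The depth limits Mir19b-2, the only member under 100 counts in both libraries.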
